A study of Mus musculus with 16 samples.

Results

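The genes of the motile cilium and its axoneme were followed across 4 groups of mouse lung. They were chosen by name only: every gene whose current symbol begins with Cfap, Dnah, Dnai, Dnal, Rsph, Tekt, Drc or Ift followed by a number, each represented by its probe set with the highest mean over the 16 arrays. The array names 18193 genes by a probe set with a single symbol, and 64 of them met this rule. Of these, 52 were above the median signal of the array on at least 4 of the 16 arrays and could be tested, among 12366 genes that passed the same filter. A gene that is high in only 1 group can pass that filter through that group.

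All mice were BALB/c females. One arm was non-pregnant and the other was at day 14 of gestation, and each was given by the nose, under light halothane anaesthesia, either phosphate-buffered saline (PBS, the vehicle) or 50 ug of respirable titanium dioxide particles (TiO2) baked beforehand to remove endotoxin. Whole-lung total RNA was taken 19 hours later and hybridised to 1-colour Affymetrix mouse genome arrays, with 4 arrays in each group. The question put to these samples was whether pregnancy changes the lung's normally slight response to particles regarded as inert. The labels give 4 separate samples per group without saying that each is 1 mouse, so the p-values measure the spread among these samples.

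Motile cilia of the lung stand in tufts on the multiciliated cells that line the airways and drive mucus towards the throat. Their core, the axoneme, is a ring of doublet microtubules around a central pair. Dynein arms on the doublets make them slide, radial spokes and the nexin-dynein regulatory complex convert sliding into an ordered beat, and tektins and other inner proteins stiffen the doublets. Intraflagellar transport (Ift) trains carry these parts to the tip, and they do so in the immotile primary cilium of other cells too. Most axonemal genes are switched on by FOXJ1 and by RFX factors, which bind the X-box in their promoters.

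Promoter sequences from RefSeq (GRCm38.p6), covering 250 bases before to 50 bases after the annotated start, were matched by symbol for 43 of the 52 tested members. A full X-box, spelled GTNNCC, then any 3 bases, then GNAAC, and searched on both strands, occurred in 7 of the 43 (16.3%) and in 673 of 27025 genes with a promoter (2.49%). The 7 were Cfap61, Cfap45, Cfap206, Tekt4, Cfap298, Ift22 and Ift57. The shorter RFX core GTTGCC, which a full X-box can contain, occurred in 12 of the 43 (27.9%, against 14.1% of all genes). The forkhead core TGTTTAC occurred in 2 of the 43 (4.65%, against 4.05%). A match is a string of letters in a window and does not show that a factor binds there. In Cfap61 the match, GTTTCCTTAGCAAC, lies across the annotated start. Windows before the start are shown for the 5 further members with the smallest p over the 4 groups, to show how the element sits in an axonemal promoter, in the gene's own direction and with each full X-box inside the window in capitals.
Cfap45 (chr1:172521071-172521129, plus strand): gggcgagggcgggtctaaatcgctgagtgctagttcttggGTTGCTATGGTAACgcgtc
Cfap206 (chr4:34730207-34730269, minus strand): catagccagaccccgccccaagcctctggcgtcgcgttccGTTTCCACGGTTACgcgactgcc
Tekt4 (chr17:25471390-25471483, plus strand): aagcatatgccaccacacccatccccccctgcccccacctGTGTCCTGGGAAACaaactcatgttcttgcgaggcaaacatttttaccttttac
Cfap298 (chr16:90934984-90935077, minus strand): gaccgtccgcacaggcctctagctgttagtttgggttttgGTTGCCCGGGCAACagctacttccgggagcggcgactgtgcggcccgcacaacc
Ift22 (chr5:136908047-136908140, plus strand): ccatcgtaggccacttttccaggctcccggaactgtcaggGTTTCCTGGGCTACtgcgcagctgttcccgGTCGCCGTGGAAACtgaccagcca
The Cfap45 and Cfap206 matches end within 10 bases of the annotated start, and both read as an X-box on the strand opposite the gene. The Ift22 window holds 2 matches, on opposite strands. Tekt4 has a further match, GTTCCTTAGGCAAC, that begins at the annotated start and so lies outside its window.

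Values below are log2(intensity + 16) after quantile normalization, and differences are on that scale, where the difference of weak signals is understated. The array median was 5.94 on it. The deposited intensities were not scaled between arrays, and their medians ran from 32 to 56.5. One array, non-pregnant PBS replicate 2, is called pregnant in one label and non-pregnant in another, and the second was followed. A sample table inside the labels gives the assigned group for 16 of 16 arrays when its chip letters are read as the numbers in the titles. Another 3 arrays differed in tissue content. Non-pregnant PBS replicates 3 and 4 had mean thymus marker levels of 8.47 and 8.70, against 5.86 to 6.77 elsewhere, and pregnant TiO2 replicate 2 had a mean squamous epithelium marker level of 4.78, against 9.42 to 10.6 elsewhere. The 3'/5' signal ratio of Gapdh, a sign of RNA integrity, was 0.778 to 1.2 in the non-pregnant arrays and 0.821 to 1.06 in the pregnant ones. The intensity of the 5' probe set for 18S ribosomal RNA, as deposited, was 34.6 to 660.5 in the non-pregnant arrays, highest in non-pregnant TiO2 replicates 1 to 3 (435.6, 660.5 and 194.8), and 40.95 to 102.7 in the pregnant ones. Its part in the pregnancy differences was not tested.

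A subset of the cilium genes was higher in the lungs of pregnant mice. Over both exposures together, 10 of the 52 members (19.2%) passed an adjusted p of 0.05, all of them higher in pregnancy, against 4.42% of all genes tested in either direction and 3.19% in that direction (limma, Benjamini-Hochberg over all genes). The 10 were the dynein heavy chain Dnah6, the nexin-dynein regulator Drc3, the radial spoke genes Rsph14 and Rsph3a, and Cfap126, Cfap45, Cfap52, Cfap54, Cfap61 and Cfap65. Rsph14 and Cfap45 would not have passed the filter on their non-pregnant arrays alone. At an unadjusted p under 0.05 there were 25 of the 52 (48.1%), against 19.7% of all genes. The fitted rises of the 10 were 1.22-fold (Rsph3a) to 1.40-fold (Cfap126). Of the 52 members, 45 (86.5%) lay above 0 in this comparison, against 53.9% of all genes, and the median difference was 0.16, against 0.01 for all genes. In whole-lung RNA, more ciliated cells, a larger share of airway in the sample and more RNA per ciliated cell cannot be told apart.

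These calls depended on scaling the arrays and on the label of 1 array. With the intensities left as deposited, 0 of the 52 members were called and 13 had an unadjusted p under 0.05, while 45 of the 52 lay above 0 with a median of 0.175. With the array of conflicting labels moved to the pregnant PBS group, 3 members were called (Cfap126, Rsph3a and Cfap69), of which 2 are among the 10. The shares of all genes in these settings are not given here. Unscaled intensities also moved the all-gene medians of the pregnancy difference after each exposure.

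**Figure D1:**
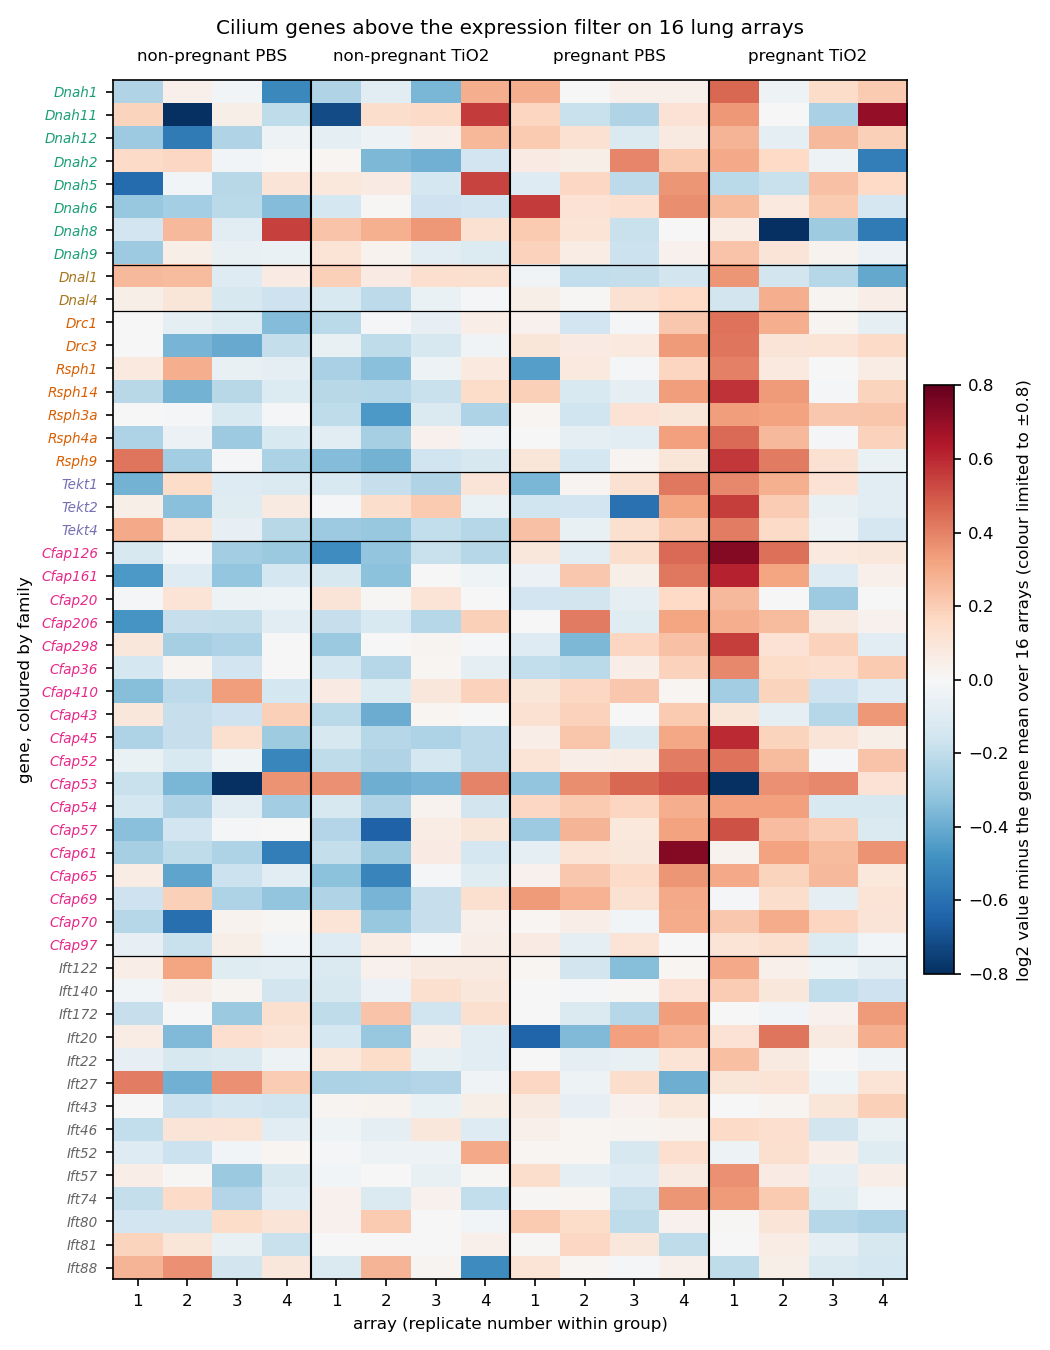
Heat map of the 52 tested cilium genes (rows, coloured by family) on the 16 arrays (columns, 4 per group), showing each log2 value minus the gene's mean over all arrays, with colours limited to ±0.8. Red cells collect in the pregnant columns above the intraflagellar transport rows, most of all in pregnant TiO2 replicate 1, the highest array for 26 of the 52 genes.

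Of the dynein heavy chains, the motors of the dynein arms, 8 of 10 were tested and Dnah6 was called. Dnah6 is an inner-arm heavy chain. Its values were 7.71, 7.75, 7.80 and 7.67 after PBS and 7.87, 8.02, 7.85 and 7.87 after TiO2 in non-pregnant mice, and 8.58, 8.13, 8.15 and 8.38 after PBS and 8.27, 8.10, 8.23 and 7.88 after TiO2 in pregnant mice. The 4 pregnant PBS arrays lay above all 8 non-pregnant arrays, and in the pregnant TiO2 group 1 array, at 7.88, fell among them. The difference after PBS was 0.58 ± 0.11 (SE, limma adjusted p = 0.0110), after TiO2 it was 0.21 ± 0.11 (adjusted p = 0.264), and over both exposures it was 0.40 ± 0.07 (adjusted p = 0.00652). Dnah6 was the only one of the 52 members called after PBS, where 1.04% of all genes were called. That call was lost when only the non-pregnant PBS and pregnant PBS arrays were fitted (adjusted p = 0.0862).

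The other heavy chains did not pass the test. Dnah12, of the inner arms, had group means of 6.25 ± 0.21 (SD, n = 4) in non-pregnant PBS, 6.58 ± 0.15 in non-pregnant TiO2, 6.61 ± 0.14 in pregnant PBS and 6.69 ± 0.16 in pregnant TiO2, and its difference over both exposures was 0.23 ± 0.08 (adjusted p = 0.131). Dnah5, the outer-arm chain often mutated in primary ciliary dyskinesia, had a difference of 0.05 ± 0.13 (adjusted p = 0.864). Dnah9 and Dnah11, further outer-arm chains, had differences of 0.10 ± 0.07 and 0.16 ± 0.19, and Dnah1 and Dnah2, of the inner arms, of 0.29 ± 0.11 and 0.14 ± 0.11. All 5 lay above 0 without passing the test, with adjusted p from 0.145 to 0.864.

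Dnah8, best known as a dynein heavy chain of the sperm tail, lay on the other side. It read 7.50, 7.92, 7.57 and 8.21 after PBS and 7.89, 7.95, 8.01 and 7.78 after TiO2 in non-pregnant mice, and 7.87, 7.77, 7.48 and 7.66 after PBS and 7.72, 6.77, 7.38 and 7.09 after TiO2 in pregnant mice. The 4 pregnant TiO2 arrays, from 6.77 to 7.72, were all below the 4 non-pregnant TiO2 arrays, while the PBS groups overlapped. The difference after TiO2 was -0.67 ± 0.18 (adjusted p = 0.0688), and over both exposures it was -0.39 ± 0.13 (adjusted p = 0.101). Without pregnant TiO2 replicate 1 these became -0.83 (adjusted p = 0.0498) and -0.47 (adjusted p = 0.0391), and Dnah8 was called lower in both. With all arrays kept but weighted by their fit, it was also called lower in both comparisons (adjusted p = 0.00903 after TiO2 and 0.0194 over both exposures), and after TiO2 also without the 2 arrays with thymus transcripts (adjusted p = 0.0472). Dnah8 was the only member of 52 with non-overlapping lower values after TiO2, where 6.19% of all genes had them.

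The dynein light chains were represented by Dnal1 and Dnal4, and neither was called. Dnal1, a light chain of the outer arm, read 8.59, 8.58, 8.23 and 8.40 after PBS and 8.52, 8.40, 8.47 and 8.46 after TiO2 in non-pregnant mice, and 8.30, 8.14, 8.14 and 8.19 after PBS and 8.68, 8.19, 8.10 and 7.92 after TiO2 in pregnant mice. Of the 8 pregnant arrays 6 lay below all 8 non-pregnant arrays, while pregnant TiO2 replicate 1, at 8.68, was the highest of all 16. The difference over both exposures was -0.25 ± 0.09 (adjusted p = 0.143), without that array it was -0.33 (adjusted p = 0.0161), and with array weights -0.28 (adjusted p = 0.0491). Here too only alternative fits that gave a call are named. Dnal4 differed by 0.14 ± 0.07 (adjusted p = 0.267).

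Of the 8 genes of the radial spokes and the nexin-dynein regulatory complex 7 were tested, all 7 lay above 0 with a median of 0.28, and 3 were called. Drc3, a subunit of the regulatory complex, read 7.80, 7.42, 7.39 and 7.60 after PBS and 7.73, 7.59, 7.66 and 7.77 after TiO2 in non-pregnant mice, and 7.89, 7.86, 7.87 and 8.13 after PBS and 8.22, 7.90, 7.90 and 7.95 after TiO2 in pregnant mice. All 8 pregnant arrays, from 7.86 upwards, lay above all 8 non-pregnant arrays, which reached 7.80. The difference was 0.34 ± 0.07 (adjusted p = 0.0145). Complete separation of the 8 pregnant from the 8 non-pregnant arrays, with pregnancy higher, was found for 2 of the 52 members, Drc3 and Cfap52 (3.85%), and for 0.542% of all genes.

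Rsph3a, a protein of the spoke stalk, read 7.55, 7.54, 7.43 and 7.54 after PBS and 7.35, 7.10, 7.44 and 7.31 after TiO2 in non-pregnant mice, and 7.57, 7.40, 7.67 and 7.65 after PBS and 7.89, 7.88, 7.77 and 7.77 after TiO2 in pregnant mice. Its highest 4 arrays were the pregnant TiO2 arrays and its lowest 3 were non-pregnant TiO2 arrays, while the PBS groups overlapped. The pregnancy difference was 0.05 ± 0.08 after PBS (adjusted p = 0.873) and 0.53 ± 0.08 after TiO2 (adjusted p = 0.00941). The TiO2 difference was -0.22 ± 0.08 in non-pregnant mice (adjusted p = 0.413) and 0.26 ± 0.08 in pregnant mice (adjusted p = 0.656). The difference between those TiO2 effects was 0.48 ± 0.12, the smallest p of any member for this term (unadjusted p = 0.00116), and it did not pass the test over all genes (adjusted p = 0.246).

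Rsph14, another spoke protein, lies close to the array median. It read 5.82, 5.67, 5.82 and 5.94 after PBS and 5.82, 5.81, 5.86 and 6.19 after TiO2 in non-pregnant mice, and 6.23, 5.92, 5.98 and 6.38 after PBS and 6.63, 6.39, 6.03 and 6.23 after TiO2 in pregnant mice. The pregnant values were mostly higher, but non-pregnant PBS replicate 4 and non-pregnant TiO2 replicate 4, at 5.94 and 6.19, lay among them. The difference was 0.36 ± 0.09 (adjusted p = 0.0440), and the call was lost without any 1 of 11 arrays. The call was also lost when no filter was used. Most non-pregnant values of Rsph14 lay below the array median, and it passed the filter only with its pregnant arrays. Rsph9, a spoke head protein, was not called, and its pregnancy difference was 0.05 ± 0.15 after PBS and 0.52 ± 0.15 after TiO2 (adjusted p = 0.0852). The spoke head genes Rsph4a and Rsph1 and the regulator Drc1 had differences over both exposures of 0.26 ± 0.08, 0.08 ± 0.10 and 0.19 ± 0.08, with adjusted p of 0.0789, 0.706 and 0.221.

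Tektins form filaments along the doublet microtubules, and 3 of 5 were tested with 0 called. Tekt4 differed by 0.22 ± 0.09 over both exposures (adjusted p = 0.168) and Tekt1 by 0.22 ± 0.11 (adjusted p = 0.272). Tekt2 had group means of 5.98 ± 0.19 in non-pregnant PBS, 6.13 ± 0.13 in non-pregnant TiO2, 5.91 ± 0.37 in pregnant PBS and 6.21 ± 0.30 in pregnant TiO2, with no difference in level by pregnancy that exceeded its spread.

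The remaining cilia and flagella associated proteins (Cfap) are a mixed family of doublet, central-pair and spoke-base proteins. Of 25 genes 18 were tested, 17 lay above 0, the median was 0.31, and 6 were called. Cfap126, also known as Flattop and acting in the placing of basal bodies, had the largest fitted rise of the 52 members. It read 8.63, 8.74, 8.48 and 8.46 after PBS and 8.26, 8.44, 8.58 and 8.53 after TiO2 in non-pregnant mice, and 8.85, 8.68, 8.90 and 9.21 after PBS and 9.49, 9.20, 8.83 and 8.85 after TiO2 in pregnant mice. Pregnant TiO2 replicate 1, at 9.49, and replicate 2, at 9.20, and pregnant PBS replicate 4, at 9.21, were the 3 highest arrays. The difference was 0.33 ± 0.14 after PBS (adjusted p = 0.373), 0.64 ± 0.14 after TiO2 (adjusted p = 0.0340) and 0.49 ± 0.10 over both (adjusted p = 0.0129). Cfap126 and Rsph3a were the 2 of 52 members called after TiO2, where 1.88% of all genes were called. The TiO2 call of Cfap126 was lost without any 1 of the non-pregnant TiO2 arrays and without pregnant TiO2 replicate 1 or 2, with adjusted p up to 0.111.

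Cfap45 and Cfap52 are inner proteins of the doublet microtubules. Cfap45, one of the X-box genes, read 5.89, 5.95, 6.26 and 5.85 after PBS and 6.01, 5.91, 5.89 and 5.93 after TiO2 in non-pregnant mice, and 6.19, 6.36, 6.02 and 6.44 after PBS and 6.74, 6.31, 6.24 and 6.19 after TiO2 in pregnant mice. Non-pregnant PBS replicate 3, at 6.26, was the 1 non-pregnant array among the pregnant values. Its difference was 0.35 ± 0.09 (adjusted p = 0.0358), and the call was lost without any 1 of 11 arrays. The call was also lost when no filter was used. Most non-pregnant values of Cfap45 lay below the array median, and it passed the filter only with its pregnant arrays. Cfap52 read 6.55, 6.49, 6.57 and 6.08 after PBS and 6.40, 6.37, 6.46 and 6.40 after TiO2 in non-pregnant mice, and 6.71, 6.66, 6.67 and 7.01 after PBS and 7.04, 6.86, 6.59 and 6.83 after TiO2 in pregnant mice. All 8 of its pregnant arrays, from 6.59 upwards, lay above the 8 non-pregnant arrays, which reached 6.57. Its difference was 0.38 ± 0.08 (adjusted p = 0.0169).

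Cfap61, whose promoter has an X-box across the start, belongs to a complex at the base of the radial spokes. It read 6.18, 6.25, 6.20 and 5.89 after PBS and 6.26, 6.16, 6.52 and 6.31 after TiO2 in non-pregnant mice, and 6.37, 6.56, 6.54 and 7.18 after PBS and 6.47, 6.77, 6.70 and 6.81 after TiO2 in pregnant mice. Pregnant PBS replicate 4 stood highest at 7.18, and non-pregnant PBS replicate 4 lowest at 5.89. The difference was 0.45 ± 0.10 over both exposures (adjusted p = 0.0216). Cfap206, of the same region of the axoneme and also with an X-box, differed by 0.32 ± 0.09 without passing the test (adjusted p = 0.0587).

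Cfap54, a protein of the central apparatus, read 7.18, 7.08, 7.23 and 7.04 after PBS and 7.19, 7.08, 7.35 and 7.17 after TiO2 in non-pregnant mice, and 7.49, 7.53, 7.49 and 7.61 after PBS and 7.65, 7.65, 7.20 and 7.19 after TiO2 in pregnant mice. After PBS the groups did not overlap. After TiO2 the pregnant values split, with replicates 1 and 2 near 7.65 and replicates 3 and 4 within the non-pregnant range. The difference was 0.31 ± 0.08 (adjusted p = 0.0303), and the call was lost without any 1 of 8 arrays. This call was also lost when no filter was used. Cfap65, known from sperm tail disorders, read 6.58, 6.10, 6.35 and 6.44 after PBS and 6.19, 6.00, 6.52 and 6.43 after TiO2 in non-pregnant mice, and 6.56, 6.74, 6.67 and 6.87 after PBS and 6.83, 6.70, 6.78 and 6.61 after TiO2 in pregnant mice. Its pregnant arrays began at 6.56, and 1 non-pregnant array, at 6.58, lay above that. The difference was 0.40 ± 0.09 (adjusted p = 0.0158).

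The calls of Dnah6, Drc3, Rsph3a, Cfap126, Cfap52, Cfap61 and Cfap65 over both exposures were kept in each of the 16 fits that left out 1 array. Just outside the threshold were Cfap161 and Cfap69, with differences of 0.38 ± 0.10 and 0.30 ± 0.08 and an adjusted p of 0.0517 each. Cfap20, an inner junction protein, was the 1 Cfap gene below 0, at -0.06 ± 0.07 (adjusted p = 0.692).

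**Figure D2:**
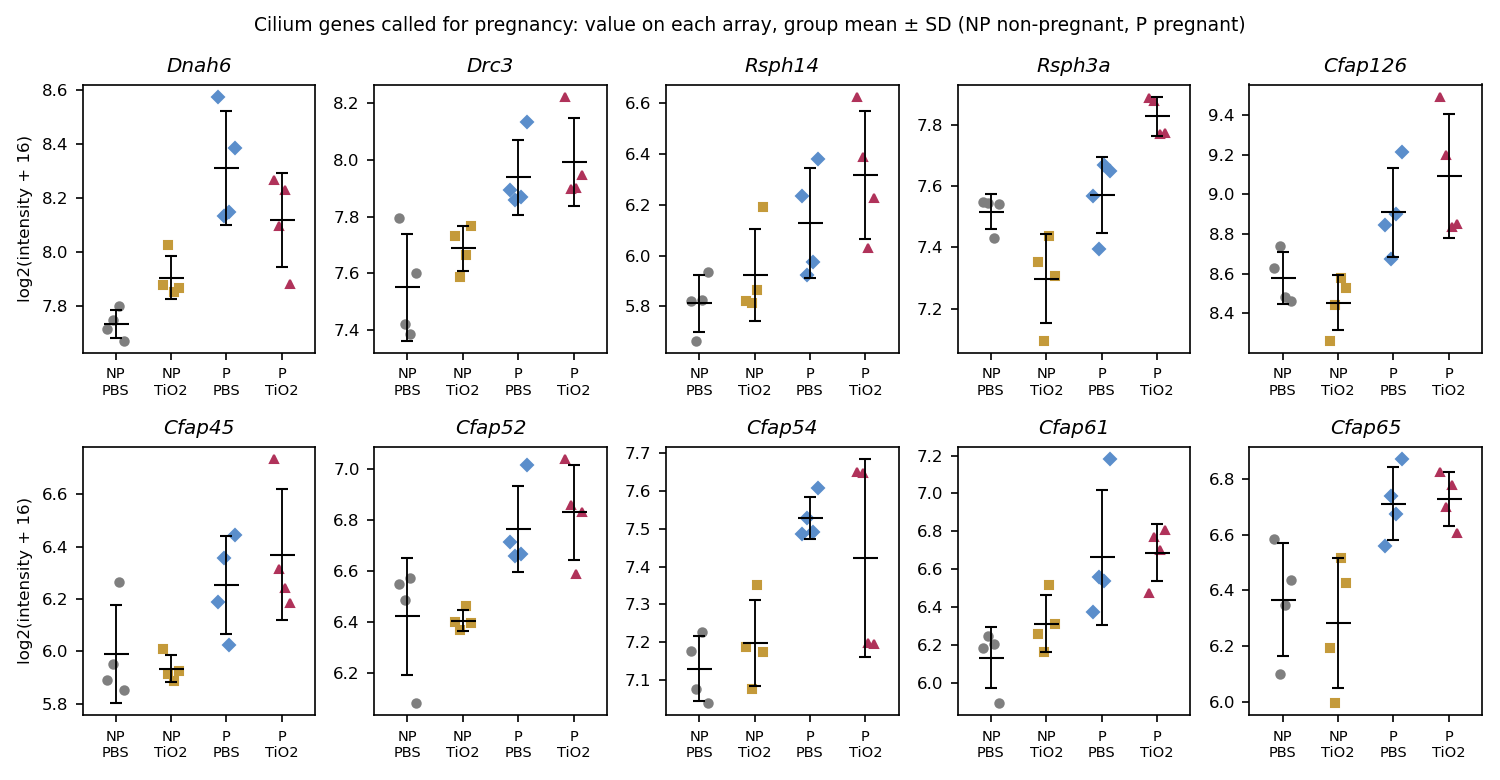
Log2(intensity + 16) on each of the 16 arrays for the 10 cilium genes called for pregnancy over both exposures, 1 panel per gene, with points for arrays, a horizontal line for each group mean and bars for ± 1 SD (n = 4). In Drc3 and Cfap52 every pregnant array lies above every non-pregnant array, and in the other 8 genes some values overlap.

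The intraflagellar transport genes lay nearer 0. All 14 were tested, 0 were called over both exposures (1 had an unadjusted p under 0.05), and the median difference was 0.05 with a range from -0.06 to 0.16. Ift43, of the retrograde complex, had the smallest p of the family, with a difference of 0.11 ± 0.05 (unadjusted p = 0.0450, adjusted p = 0.242). Ift88, the widely studied anterograde subunit, differed by -0.06 ± 0.10 (adjusted p = 0.774). Ift20, the subunit that also sits at the Golgi, differed by -0.08 ± 0.19 after PBS and 0.35 ± 0.19 after TiO2 (adjusted p = 0.306 for the second). The remaining 38 members had a median of 0.24, and 35 of them lay above 0. The difference between the Ift genes and the other members was not tested.

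**Figure D3:**
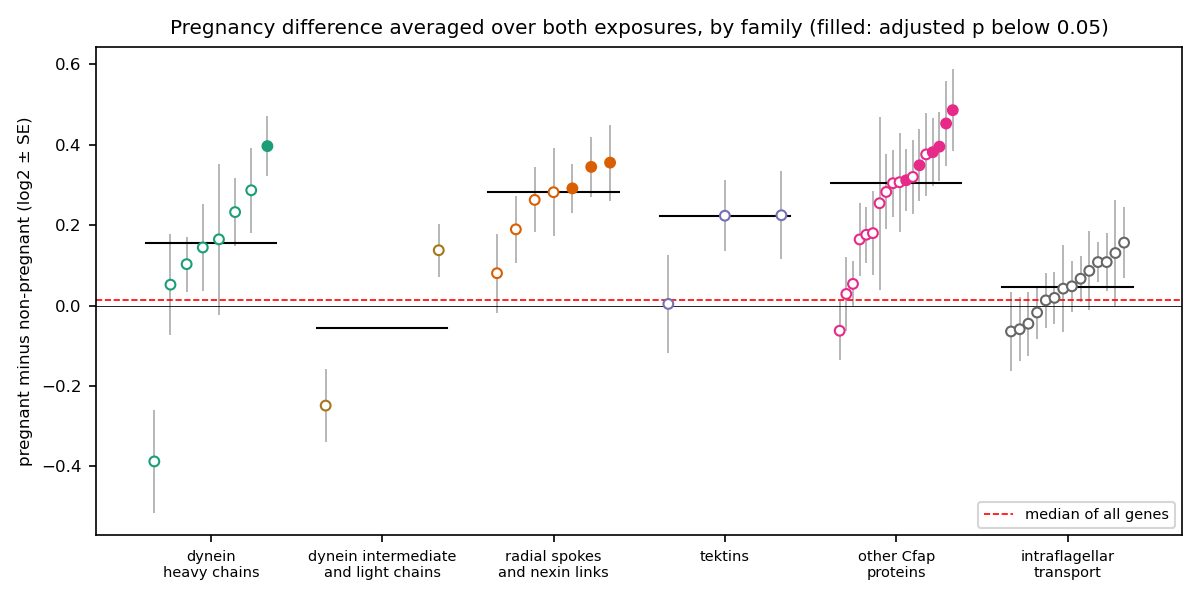
Pregnancy difference over both exposures (log2, ± SE) for each of the 52 tested genes, sorted within family, with filled circles for an adjusted p below 0.05, black lines for family medians and a dashed red line for the median of all genes. The radial spoke and Cfap medians are 0.28 and 0.31, and the intraflagellar transport median is 0.05.

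Taken by exposure, the pregnancy difference lay above 0 for 43 of 52 members after PBS (82.7%, against 51.8% of all genes) and for 42 of 52 after TiO2 (80.8%, against 55.6%). These comparisons use different arrays. The member medians were 0.13 and 0.20, against 0.01 and 0.03 for all genes. Both differences were above 0 in 37 of the 52 members (71.2%) and in 31.6% of all genes. Pregnant arrays lay wholly above non-pregnant ones for 6 members after PBS (11.5%, against 3.45% of all genes), namely Dnah6, Drc3, Cfap161, Cfap52, Cfap54 and Cfap61. After TiO2 they did so for 10 members (19.2%, against 9.57%), namely Drc3, Rsph3a, Rsph9, Tekt4, Cfap126, Cfap36, Cfap45, Cfap52, Cfap65 and Ift20.

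**Figure D4:**
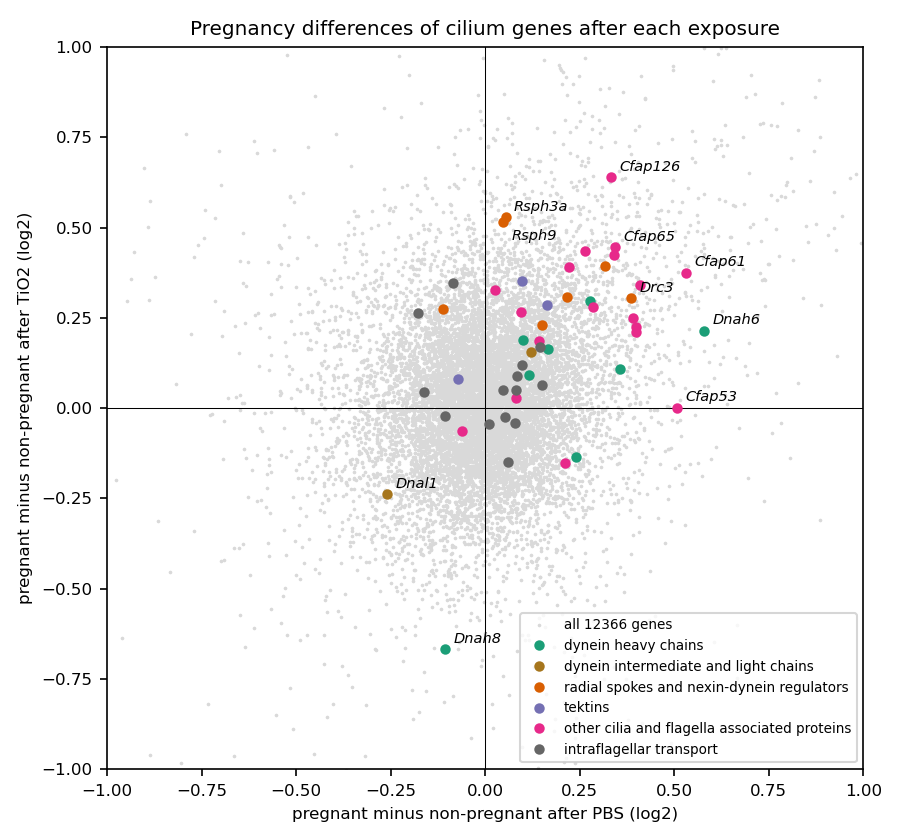
Pregnant minus non-pregnant difference (log2) after PBS on the horizontal axis and after TiO2 on the vertical axis for the 12366 genes tested (grey) and the 52 cilium genes (coloured by family), with both axes limited to ±1. Of the cilium genes 37 lie in the upper right part, and Dnah8 stands apart at -0.67 after TiO2.

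TiO2 itself left no cilium gene past the threshold in either arm. In non-pregnant mice 0 of 52 members were called by limma (0% of all genes), and 4 had an unadjusted p under 0.05 (7.69%, against 9.89% of all genes). The member median was 0.05, against -0.02 for all genes, with Dnah12 the largest rise at 0.34 ± 0.12 (adjusted p = 0.372) and Ift27 the largest fall at -0.34 ± 0.15 (adjusted p = 0.482). In pregnant mice 0 of 52 were called (0% of all genes), 3 had an unadjusted p under 0.05 (5.77%, against 6.42%), and the median was 0.06, against 0.00. For the difference between the 2 TiO2 effects 0 of 52 were called (0% of all genes), and 5 had an unadjusted p under 0.05 (9.62%, against 10.9%). The largest differences between the TiO2 effects were those of Rsph3a, Rsph9 (0.47 ± 0.22) and Cfap36 (0.30 ± 0.14) above 0, and of Dnah8 (-0.56 ± 0.26) and Dnah6 (-0.36 ± 0.15) below it, among members with an unadjusted p under 0.05. The member shares at an unadjusted p were close to those of all genes in each of these comparisons. More members than genes at large lay above 0. Their shares were 63.5% in non-pregnant mice (45.5% of all genes) and 69.2% in pregnant mice (49.9%). For the difference between the TiO2 effects the shares were 55.8% and 53.3%. These shares were not tested. TiO2 and PBS arrays did not overlap for 1 member in non-pregnant mice, Dnah6, higher after TiO2 (1.92%, against 2.09% of all genes), and for 1 in pregnant mice, Rsph3a, also higher (1.92%, against 2.05%). With TiO2 averaged over both arms the counts were 0 called (0% of all genes) and 2 with an unadjusted p under 0.05 (3.85%, against 6.2%). In that comparison 35 of the 52 lay above 0 (67.3%, against 46.2%).

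These designs differ in what they could find. On simulated data with these means and spreads, 66% of genes changed 1.3-fold were recovered for pregnancy over both exposures. For the same fold, recovery was 24% for TiO2 in non-pregnant mice, 16% for TiO2 in pregnant mice and 6% for the difference between them. Recovery for pregnancy within 1 exposure was 18% after PBS and 24% after TiO2. With TiO2 averaged over both arms it was 64%, close to that for pregnancy. The TiO2 comparisons within 1 arm and the difference between them would thus mostly miss a 1.3-fold change. The simulation changed 50 genes at each fold in every comparison, and recovery depends on how many genes change. Its noise was drawn for each gene separately, so shifts of many genes together on 1 array were not included. In the real data 0% of all genes were called for averaged TiO2 and 4.42% for pregnancy. The 64% may therefore not hold for the averaged TiO2 comparison.

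Among arrays the pregnancy difference was uneven. The median over the 52 members of the value minus the gene's mean was -0.11 to -0.09 in non-pregnant PBS, -0.12 to -0.01 in non-pregnant TiO2, 0.02 to 0.21 in pregnant PBS and 0.00 to 0.30 in pregnant TiO2. The ranges of the 8 pregnant and 8 non-pregnant arrays did not overlap in this median, but only narrowly (0.0026 and -0.0076 at the nearest). The mean over the members did overlap. It was 7.439 in non-pregnant TiO2 replicate 4, above pregnant PBS replicate 3 (7.428) and pregnant TiO2 replicate 3 (7.435). Pregnant TiO2 replicate 1 was the highest array for 26 of the 52 members (50.0%, against 11.0% of all genes), and pregnant PBS replicate 4 for 6 (11.5%, against 3.95%). Replicate 1 also had the second lowest deposited median, 33.6. The lowest, 32, was that of non-pregnant PBS replicate 2, which was highest for 2 members. Without pregnant TiO2 replicate 1, 7 members were called higher in pregnancy over both exposures, all among the 10, and 2 lower (Dnah8 and Dnal1). The share of all genes called in that fit is not given here.

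None of the tested regulators of multiciliated cell fate was called for pregnancy over both exposures. Of 16 listed, 11 were tested, 0 had an unadjusted p under 0.05, 6 lay above 0 and the median was 0.06. The difference between these regulators and the axonemal genes was not tested. Foxj1, the forkhead factor of motile ciliogenesis, read 8.45, 8.87, 8.54 and 8.25 after PBS and 8.35, 8.60, 8.47 and 8.33 after TiO2 in non-pregnant mice, and 8.45, 7.86, 8.72 and 8.89 after PBS and 9.06, 9.03, 8.94 and 8.81 after TiO2 in pregnant mice. The PBS groups overlapped, and 3 of 4 pregnant TiO2 arrays lay above every other array. Its difference was -0.04 ± 0.18 after PBS, 0.52 ± 0.18 after TiO2 (adjusted p = 0.124) and 0.24 ± 0.13 over both (adjusted p = 0.312). The X-box binding factors Rfx1, Rfx2 and Rfx3 differed over both exposures by -0.05 ± 0.09, 0.14 ± 0.15 and -0.03 ± 0.09. The centriole amplification genes Ccno, Deup1 and Plk4 differed by 0.14 ± 0.13, 0.06 ± 0.14 and -0.17 ± 0.10, Trp73 by 0.14 ± 0.11, and E2f4 and its partner Tfdp1 by 0.10 ± 0.07 and -0.01 ± 0.10. Myb differed by -0.32 ± 0.15 (adjusted p = 0.268), and its highest values, 9.31 and 9.55, were in the 2 arrays with thymus transcripts.

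Other genes of the motile cilium, from lists with the members left out, had medians above that of all genes over both exposures. Their counts called higher stand against 3.19% of all genes. Among factors that assemble and dock dynein arms, 5 of 19 tested genes were called higher and 0 lower, with a median of 0.13. They were Dnaaf4 (0.40 ± 0.06, adjusted p = 0.00187), Dnaaf1 (0.33 ± 0.08), Pih1d2 (0.38 ± 0.09), Ttc25 (0.45 ± 0.12) and Zmynd10 (0.42 ± 0.11). Among central-pair and nexin-link genes, 3 of 18 were called higher, namely Spag16, Enkur and Ak7, with a median of 0.21 and 17 of 18 above 0. Among other markers of ciliated cells, 2 of 24 were called higher, Cdhr4 (0.42 ± 0.07, adjusted p = 0.00347) and Tctex1d4, with a median of 0.22 and 22 of 24 above 0. Genes of the primary cilium and its BBSome cargo complex, 31 tested, had 0 calls, 0 with an unadjusted p under 0.05 and a median of 0.02.

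Some genes from a list for other airway cells were called as well. Of 21 tested club and secretory cell genes, 4 were called higher in pregnancy over both exposures, against 3.19% of all genes, and 17 did not pass. They were the secreted antimicrobial protein Ltf (0.75 ± 0.15), Bpifb1 (0.71 ± 0.18), the mucin Muc5b (0.61 ± 0.14) and the keratin Krt19 (0.38 ± 0.08), and the list median was 0.19. An unadjusted p under 0.05 was reached by 12 of the 21, against 19.7% of all genes. Above 0 lay 17 of the 21, against 53.9% of all genes. A rise in pregnancy was thus not limited to the cilium lists. The list mean ran from 10.5 to 10.8 in both non-pregnant groups, from 10.8 to 10.9 in pregnant PBS and from 10.8 to 11.1 in pregnant TiO2. The defining club cell genes Scgb1a1 and Scgb3a2 differed by 0.02 ± 0.04 and 0.05 ± 0.06. Of 13 alveolar epithelial genes 0 were called, 2 had an unadjusted p under 0.05, and the median was -0.01. Basal airway, airway cartilage, squamous, fast muscle and thymus lists had 0 of 6, 0 of 2, 0 of 11, 0 of 13 and 0 of 5 called, with medians of -0.06, 0.37, -0.66, -0.47 and -0.22. Pregnant TiO2 replicate 2 had by far the lowest squamous and fast muscle list means, 4.78 and 6.16. After PBS, a comparison without that array, the medians of those lists were 0.24 and 0.14. The part of airway share in the cilium gene differences was not tested. With the 3 arrays of unlike tissue content left out, 8 of the 52 members were called higher, 6 of them among the 10, and with the 2 thymus arrays alone left out 13 were, the 10 included. The shares of all genes called in those fits are not given here.

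**Figure D5:**
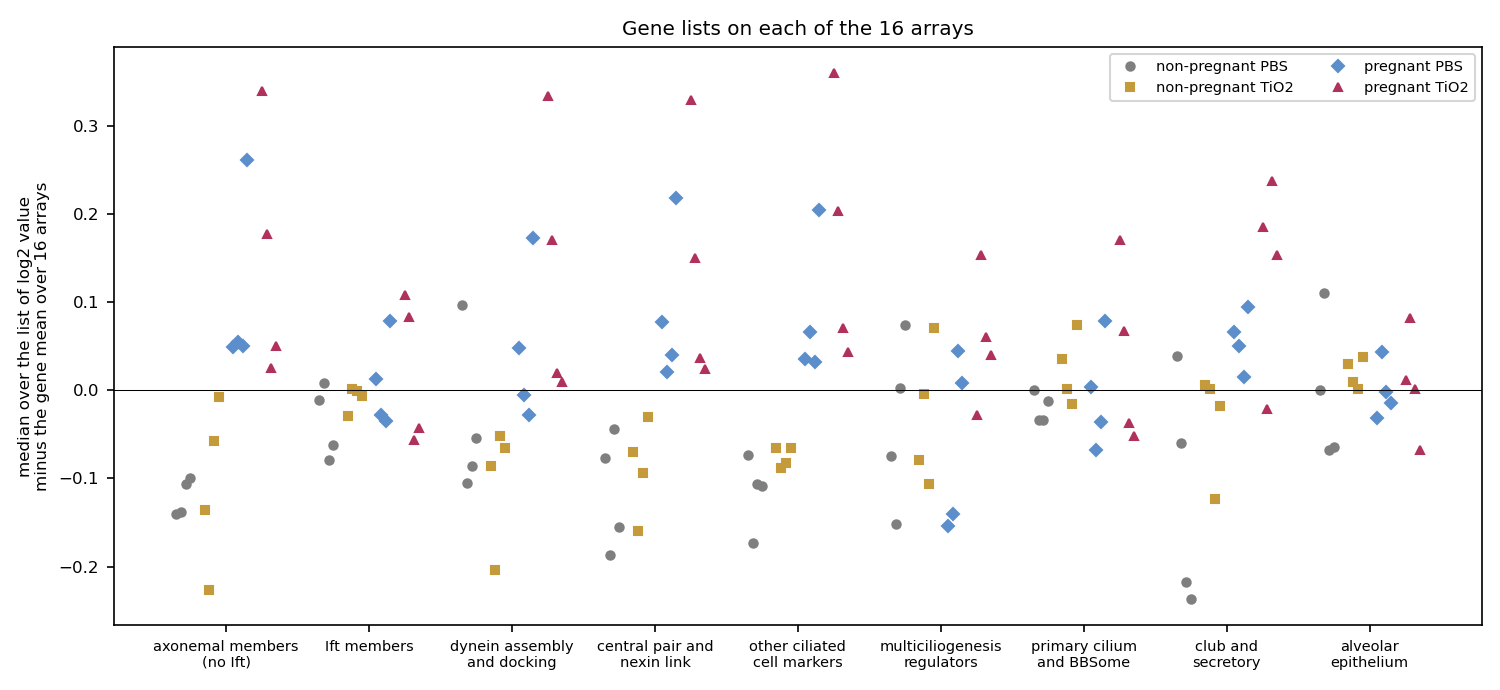
For each gene list (horizontal axis) and each of the 16 arrays, the median over the list of the log2 value minus the gene's mean over the arrays (vertical axis), with marker and colour by group. The axonemal members, the central pair list and the other ciliated cell markers have every pregnant array above every non-pregnant array, and the primary cilium and alveolar lists have mixed groups.

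The 12 members below the filter were Dnah17, Dnah7a, Rsph6a, Tekt3, Tekt5, Cfap157, Cfap20dc, Cfap221, Cfap299, Cfap300, Cfap47 and Cfap97d1, and they were not tested. The 64 members have 98 probe sets. Of those not used, 11 passed the filter, in 10 genes, and 9 of the 11 lay on the same side of 0 as the probe set used. The 2 that differed were of Cfap97 (-0.23, against 0.05) and Ift27 (-0.09, against 0.04). None of the called members is among these genes, so each call rests on 1 probe set. The called members' other probe sets were below the filter, with mixed signs. They gave -0.13 for Drc3, -0.10 for Rsph3a, 0.27 for Cfap52, -0.20 for Cfap54, and 0.60 and -0.03 for Cfap61. Within groups the members varied about as much as other genes, with a median SD of 0.18 against 0.17.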

How the data were processed

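Total lung RNA was measured on 16 arrays in 4 groups of 4. The authors deposited an intensity on the linear scale for each probe set; GCOS, MAS5 and RMA are named per the submitters' processing notes, with versions and roles not given in the sources used here. After removal of 64 control probe sets, arrays were quantile-normalized, and log2(value + 16) taken. Of 45101 probe sets, 34958 had 1 gene symbol, 932 several and 9160 none listed; symbols were updated by Entrez identifier (34754 matched) against RefSeq GRCm38.p6, used for names and promoter sequences only. Genes were kept when above the array median on at least 4 of 16 arrays.

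All 12366 kept genes were fitted by lmFit and eBayes of limma 3.58.1 under R 4.3.3, as 4 group means with 12 residual degrees of freedom, and Benjamini-Hochberg adjusted p-values below 0.05 were called. Groups come from the labels' gestation and exposure fields, and replicate numbers only name arrays. Members named with values were those called in any contrast, those with the smallest p in each family or contrast, and the tested regulators; a few others were named after their values were seen. The members and gene lists were chosen with earlier results of these data known, so the lists are no independent evidence. The fit was tested on simulated data with 50 genes changed at each fold. Alternatives covered the scaling, filter, pseudocount (1 and 64), probe sets, arrays in the fit, spread estimate, array weights and each array left out. The number of arrays limits the precision.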

Additional observations from a re-analysis of the deposited data

Results flagged for a closer look

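Among the 41 named genes, 164 groups of 4 arrays were examined for 1 array far from its 3 neighbours, measured as its gap to the nearest array divided by the group's range. The gap passed Dixon's critical value in 15 groups, and chance alone flags about 1 in 20 such groups. Among axonemal genes, Dnah6 was high in non-pregnant TiO2 replicate 2 (8.02, gap ratio 0.864) and Rsph3a low in non-pregnant PBS replicate 3 (7.43, gap ratio 0.942). Drc3 was high in pregnant PBS replicate 4 (8.13, gap ratio 0.873) and in pregnant TiO2 replicate 1 (8.22, gap ratio 0.841), and Cfap52 in pregnant PBS replicate 4 (7.01, gap ratio 0.846). Rsph14 was high in non-pregnant TiO2 replicate 4 (6.19, gap ratio 0.869).

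Among transport genes, Ift43 was high in non-pregnant PBS replicate 1 (9.75, gap ratio 0.834) and Ift20 low in non-pregnant PBS replicate 2 (7.67, gap ratio 0.845). Ift27 was high in non-pregnant TiO2 replicate 4 (7.18, gap ratio 0.903) and low in pregnant TiO2 replicate 3 (7.17, gap ratio 0.911). Among regulators, Myb was high in pregnant TiO2 replicate 2 (8.56, gap ratio 0.929), where Deup1 was low (5.69, gap ratio 0.862). Ccno was high in non-pregnant PBS replicate 1 (7.18, gap ratio 0.859), Trp73 in non-pregnant TiO2 replicate 4 (5.94, gap ratio 0.841), and Tfdp1 was low in pregnant TiO2 replicate 1 (8.41, gap ratio 0.837).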

How the results depend on the processing

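Over both exposures the count of members called for pregnancy was 10. It was 0 with the values as deposited, 3 with the array of conflicting labels moved to pregnant PBS, and 7 to 12 when 1 array was left out in turn; under the other settings it was 7 to 14, and 2 of the 14 (array weights) were lower in pregnancy. After PBS the count of 1 became 0 with the values as deposited, with only the groups compared in the fit and with that array moved, and was 1 to 2 with 1 array left out. After TiO2 the count of 2 became 0 with the values as deposited, 1 without a filter, with every probe set as its own row and without the 3 arrays of unlike tissue content, 4 without the 2 thymus arrays (1 of them, Dnah8, lower) and 10 with array weights (2 of them, Dnah8 and Dnal1, lower), and was 1 to 3 with 1 array left out (Dnah8 lower without pregnant TiO2 replicate 1). The TiO2 counts stayed at 0 under every setting run. The shares of all genes called in these alternative fits are not given here. A changed count therefore does not show whether the members differ from other genes. The values as deposited moved the all-gene median by over 0.1 in 4 comparisons, to 0.17 for TiO2 in non-pregnant mice, -0.25 for the difference of TiO2 effects, 0.16 for pregnancy after PBS and -0.083 for pregnancy after TiO2; the member medians there were 0.23, -0.25, 0.27 and 0.07.

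Each of the 10 called members stayed above 0 under every setting run, whereas some values near 0 changed sign. Ift122 after PBS became 0.0099 with the values as deposited and 0.015 with the array of conflicting labels moved. Over both exposures Tfdp1 became 0.013 with the values as deposited and 0.10 without the 2 thymus arrays or the 3 arrays, and was -0.095 to 0.053 with 1 array left out. Rfx3 became 0.035 and 0.017 in those 2 fits and was -0.10 to 0.0037 with 1 array left out, and Deup1 became -0.031 without the 2 thymus arrays. The cause was not tested. No paired analysis was possible because replicate numbers were given in accession order and pair nothing.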
